A study of Homo sapiens with 2 samples.

Results

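The transcripts of 10 genes of fatty acid synthesis were examined in 22Rv1 cells depleted of EIF3F. They are the regulator SREBF1, the enzymes FASN, ACACA, ACACB, ACLY, SCD, FADS1, FADS2 and ELOVL6, and the fatty acid activating enzyme ACSL3. They were chosen by name, as genes of lipogenesis, out of 58884 gene entries in the table, and each had 1 entry. All 10 reached a mean of 1 TPM over both libraries, the minimum for a gene to be compared, which 13307 genes met. 22Rv1 is a castration-resistant human prostate cancer line. One group expressed a control vector (shCON) and the other a short hairpin RNA (shEIF3F) targeting EIF3F, which codes for a subunit of the translation initiation complex eIF3. Both groups had a single RNA-seq library (1 each), so the differences below carry no error and no p-value. Loss of EIF3F cannot be told apart from anything else the hairpin did. The time after delivery of the hairpin is not given in the sources used here.

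Cells build fatty acids from citrate. ACLY cleaves citrate to acetyl-CoA, the acetyl-CoA carboxylases turn it into malonyl-CoA, and fatty acid synthase (FASN) joins these units into palmitate. ELOVL6 then lengthens the chain, SCD puts in the first double bond, and FADS2 and FADS1 add further double bonds to polyunsaturated chains. SREBF1 encodes SREBP1, a transcription factor held in the endoplasmic reticulum membrane until the sterol sensor SCAP escorts it to the Golgi for cleavage, after which it activates most of these enzyme genes. Prostate tumours are known for active lipogenesis, which androgens raise in part through SREBP1.

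EIF3F stood at 991 TPM in the shCON library and 17.0 TPM in the shEIF3F library, in the direction the labels give. TPM is a transcript level scaled by transcript length and library total, from which read numbers cannot be recovered, so depth is unknown. The listed values summed to 992454 in shCON and 994055 in shEIF3F. Across the 13307 genes the median log2 ratio of shEIF3F to shCON was -0.36, computed with 1 TPM added to both values. All 8 prostate luminal markers of a fixed list reached the minimum, with a summed level of 755 TPM in the shCON library and 846 TPM in the shEIF3F library, although KLK2 (32.6 and 2.50 TPM) and KLK3 (9.71 and 1.94 TPM) were lower. Of 6 adipocyte markers only LIPE reached it, at 4.61 and 0.52 TPM, and FABP4 was listed at 0 in both libraries. Hepatocyte markers summed to 198 TPM in the shCON library and 1048 TPM in the shEIF3F library, nearly all of it ALB. Of the 6, 3 reached the minimum: ALB, TTR at 0.14 and 32.2 TPM, and APOA1 at 4.01 and 3.37 TPM. TTR reached it only through shEIF3F, and CYP3A4 was listed at 0 in both libraries. Endothelial markers summed to at most 0.05 TPM. The summed levels of leukocyte markers were 1.58 and 5.51 TPM, and those of fibroblast markers 40.9 and 27.2 TPM. The part of these other transcripts in the results was not tested.

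Promoter sequences of 9 of the 10 genes were found in RefSeq (GRCh38.p14), as windows from 250 bases before to 50 bases after an annotated gene start; FASN was not matched. Shown here are the 3 genes with the lowest log2 ratios (SREBF1, SCD and FADS1) and, beside them, ELOVL6 and ACSL3, which were not lower. Capitals mark matches on either strand to the NF-Y box CCAAT or the Sp1 box GGGCGG, where a match on the opposite strand reads as the reverse complement.
SREBF1, chr17:17836937-17837236, minus strand: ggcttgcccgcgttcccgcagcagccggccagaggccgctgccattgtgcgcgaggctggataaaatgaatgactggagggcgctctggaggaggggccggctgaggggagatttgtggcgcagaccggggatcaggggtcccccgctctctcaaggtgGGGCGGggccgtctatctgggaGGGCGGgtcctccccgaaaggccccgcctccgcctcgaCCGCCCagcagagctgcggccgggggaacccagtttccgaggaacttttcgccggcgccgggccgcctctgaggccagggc
SCD, chr10:100346983-100347282, plus strand: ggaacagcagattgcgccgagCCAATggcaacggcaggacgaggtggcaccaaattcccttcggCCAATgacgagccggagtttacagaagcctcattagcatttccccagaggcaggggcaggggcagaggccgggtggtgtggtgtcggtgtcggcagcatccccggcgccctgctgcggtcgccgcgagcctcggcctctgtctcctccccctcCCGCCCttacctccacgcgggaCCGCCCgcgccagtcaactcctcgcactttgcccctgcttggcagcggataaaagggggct
FADS1, chr11:61816954-61817253, minus strand: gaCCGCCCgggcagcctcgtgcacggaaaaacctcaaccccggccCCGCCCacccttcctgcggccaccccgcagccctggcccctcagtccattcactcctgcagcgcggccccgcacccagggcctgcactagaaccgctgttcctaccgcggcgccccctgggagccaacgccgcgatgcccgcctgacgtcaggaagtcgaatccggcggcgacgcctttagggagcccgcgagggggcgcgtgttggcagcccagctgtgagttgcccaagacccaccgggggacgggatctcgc
ELOVL6, chr4:110198566-110198865, minus strand: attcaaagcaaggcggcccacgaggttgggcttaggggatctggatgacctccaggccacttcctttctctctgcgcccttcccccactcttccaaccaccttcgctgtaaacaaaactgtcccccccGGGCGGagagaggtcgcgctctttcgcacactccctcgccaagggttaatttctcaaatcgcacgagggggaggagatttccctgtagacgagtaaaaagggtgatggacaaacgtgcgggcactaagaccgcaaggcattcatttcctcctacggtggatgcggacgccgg
ACSL3, chr2:222860786-222861085, plus strand: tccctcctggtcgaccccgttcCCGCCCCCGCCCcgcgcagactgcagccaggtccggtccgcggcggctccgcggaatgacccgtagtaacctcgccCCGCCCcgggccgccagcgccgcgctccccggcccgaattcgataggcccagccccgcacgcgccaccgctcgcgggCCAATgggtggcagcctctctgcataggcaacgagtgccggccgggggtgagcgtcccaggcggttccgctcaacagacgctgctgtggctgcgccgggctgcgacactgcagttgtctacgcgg

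The 9 genes had 14 windows, since ACACA has 3 annotated starts and ACACB, ACLY and FADS2 have 2 each, and the windows of ACLY overlap each other, as do those of FADS2. The Sp1 box was present in 11 of 14 windows, against 45.0% of all 35116 promoter windows of the same length. The NF-Y box was present in 8 of 14, against 34.6%. Repeated windows were removed for the 14 but not for the 35116, and GC content was not matched. The box GGGCGG holds only G and C, so no enrichment is read from these shares. SCD carried 2 NF-Y boxes, starting 229 and 186 bases before the gene start (positions -229 and -186). ACSL3 carried 1 NF-Y box, and the SREBF1, FADS1 and ELOVL6 windows held none. No window matched the sterol regulatory element core TCACNCCA (3.95% of all windows) or the E-box CACGTG (7.26%), both strands searched. The matches describe these letters in these windows, and binding was not measured. The table gives 1 value per gene, so the alternative starts of ACACA, or the SREBP1 forms that arise from alternative first exons of SREBF1, were not resolved.

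In shEIF3F, 7 of the 10 genes were lower by 2-fold or more, and 0 were higher by as much. The shares over all genes compared were 25.5% lower and 8.44% higher. The 10 genes had a median ratio of -1.51 on the log2 scale, beside -0.36 for all genes. Summed over the 10 genes, the level was 825 TPM in the shCON library and 358 TPM in the shEIF3F library, 43.4% of control. Without FASN the sum was 596 and 145 TPM, 24.4% of control. FASN thus made up 27.8% of the summed level in shCON and 59.4% in shEIF3F. In bulk RNA, fewer cells that express a gene and less RNA per cell cannot be told apart.

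**Figure D1:**
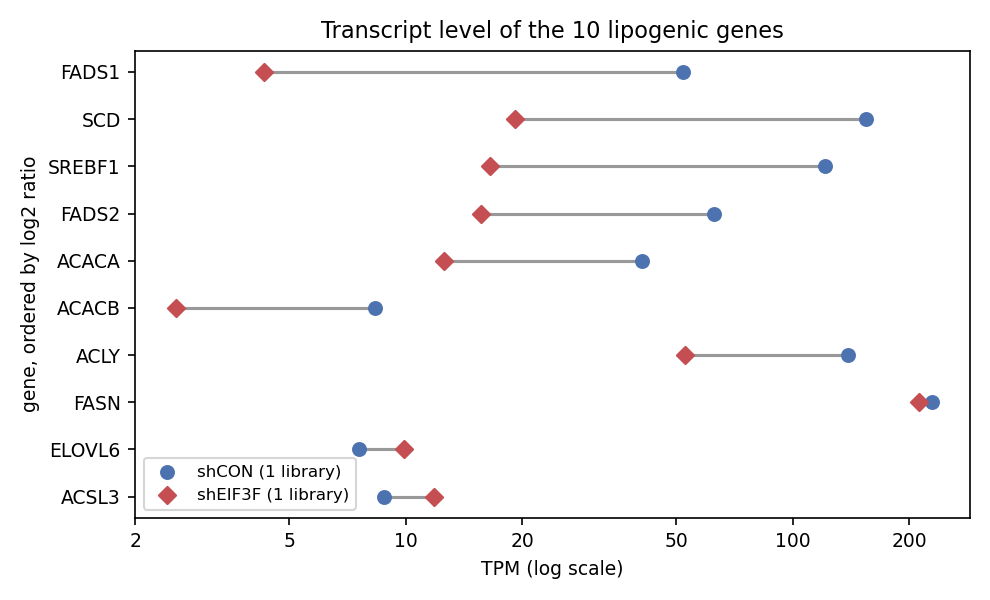
TPM (log axis) of each of the 10 genes in the shCON library (circle) and the shEIF3F library (diamond), joined by a line and ordered by log2 ratio. FADS1, SCD and SREBF1 have the longest lines to the left, the FASN symbols nearly touch at 229 and 213 TPM, and ELOVL6 and ACSL3 lie slightly to the right in shEIF3F.

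The regulator SREBF1 stood at 122 TPM in the shCON library and 16.5 TPM in the shEIF3F library, 13.6% of control (log2 ratio -2.81). Only 2.3% of all genes had a lower ratio. Its paralog SREBF2, which mainly serves cholesterol synthesis and whose genes overlap with this programme, was at 125 and 68.0 TPM (-0.87). The paralogs thus began near the same level and ended apart: SREBF2 was 1.03 times SREBF1 in shCON and 4.12 times in shEIF3F. Exons of SREBF1 share 556 bases with RAI1 on the opposite strand, which was at 16.8 and 3.94 TPM. The use of strand in counting is not given, so reads there cannot be told apart. Among protein-coding genes the 5 nearest to SREBF1 in both log2 levels (Euclidean distance over 2 libraries, 0.19 to 0.26) were REEP4, GPAT2, C20orf27, ARF3 and MVD.

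The genes that control SREBP maturation lay near all genes compared. Of 14 genes, SREBF2 among them and all compared, 3 were at least 2-fold lower and 0 higher, with a median of -0.32. Over all genes 25.5% were lower and 8.44% higher, with a median of -0.36. None of the 14 was past 2-fold after subtraction of the all-gene median from each ratio (centring), or of the median of genes of like GC content (removal of the GC trend). SCAP, the escort, was at 49.0 and 40.4 TPM (log2 ratio -0.27). INSIG1, the retention protein that is itself an SREBP target, was at 84.7 and 37.3 TPM (-1.16). The 2 others at least 2-fold lower were UBE2G2 and ERLIN1 (both -1.05), which take part in degradation at the endoplasmic reticulum.

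ACLY, which makes cytosolic acetyl-CoA, stood at 139 TPM in the shCON library and 52.7 TPM in the shEIF3F library, 37.9% of control (log2 ratio -1.38). Its exons share 156 bases with an antisense transcript, AC125257.2, which was at 102 and 12.2 TPM. Without knowledge of strand the reads of the pair cannot be told apart, so the ACLY value is uncertain. Around it, the supply of acetyl-CoA and NADPH had 4 of 12 compared genes at least 2-fold lower and 0 higher (median -0.57). This is near the shares over all genes, 25.5% lower and 8.44% higher (median -0.36). Among the 4 were SLC25A1, the mitochondrial citrate exporter, at 129 and 44.4 TPM (-1.52), and the acetyl-CoA synthetases ACSS1 (-1.21) and ACSS2 (-1.15). Centring left 1 of the 4 at least 2-fold lower, against 16.0% of all genes. Removal of the GC trend left 0, against 13.9%. Malic enzyme ME1 did not reach the minimum, at 0 and 0.18 TPM.

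The acetyl-CoA carboxylases were lower by nearly the same proportion. ACACA, the cytosolic enzyme that commits carbon to fatty acids, was at 40.9 TPM in the shCON library and 12.6 TPM in the shEIF3F library (log2 ratio -1.62). ACACB, whose malonyl-CoA at the mitochondrial surface restrains fatty acid oxidation, was at 8.31 and 2.55 TPM (-1.39). These are 30.8% and 30.7% of control, and ACACA was 4.92 times ACACB in shCON and 4.93 times in shEIF3F. The ratios on the log2 scale differ because the added 1 TPM weighs more on the lower gene. HLCS, which attaches biotin to both carboxylases, was at 5.59 and 0.91 TPM (-1.79) and reached the minimum only through shCON. Of the 16 genes listed as partners of ACACA and FASN, 13 were compared, 3 were at least 2-fold lower and 0 higher (median -0.50), a share near that of all genes. After centring 2 were lower and 2 higher, and with the GC trend removed 1 was lower and 2 higher. At a mean of 5 TPM or more, which HLCS does not reach, 2 were lower. Besides HLCS, the lower genes as deposited were the malonyl transferase MCAT (-1.45) and the AMPK-activating kinase STK11 (-1.16), and the AMPK subunit PRKAB1 was at 9.91 and 20.1 TPM (0.95).

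FASN stood near its control level, unlike ACLY and ACACA before it in the pathway. It was the most abundant of the 10 in both libraries, at 229 TPM in the shCON library and 213 TPM in the shEIF3F library, 92.7% of control (log2 ratio -0.11). Its log2 ratio was higher than that of 60.9% of all genes. Within a library, ratios between genes do not depend on how the library is scaled. FASN was 1.89 times SREBF1 in shCON and 12.9 times in shEIF3F, 1.48 and 11.1 times SCD, 5.61 and 16.9 times ACACA, and 1.65 and 4.03 times ACLY. FASN thus stood higher against each of these 4 genes in shEIF3F.

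Of the desaturases, SCD and FADS1 had the lowest log2 ratios of the 10 genes. SCD, which makes oleate, stood at 155 TPM in the shCON library and 19.2 TPM in the shEIF3F library, 12.4% of control (log2 ratio -2.95). FADS1 was the lowest of the 10, at 52.0 and 4.30 TPM, 8.3% of control (-3.32), and only 1.3% of all genes had a lower ratio. FADS2, which acts before FADS1 in the synthesis of long polyunsaturated fatty acids, was at 62.7 and 15.7 TPM, 25.0% of control (-1.93). In shCON the FADS2 level was 1.21 times that of FADS1, and in shEIF3F 3.64 times.

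FADS1 and FADS2 are neighbours on chromosome 11 (GRCh38.p14), FADS1 on the minus and FADS2 on the plus strand, with annotated starts 599 and 800 bases apart. Their exons share 490 bases on opposite strands, where reads cannot be assigned without strand. FADS2 also shares 49 exon bases on the same strand with FEN1, a DNA replication enzyme, which was at 92.0 and 5.54 TPM. Paralogs outside the set had smaller ratios in size: FADS3 was at 11.1 and 4.61 TPM (log2 ratio -1.11), and SCD5 at 2.19 and 2.63 TPM (0.19). Of 11 other desaturases and electron donors, 9 were compared, of which 2 were at least 2-fold lower, FADS3 and the sphingolipid desaturase DEGS1 (-1.07), and 1 higher, CYB5R4, at 0.40 and 2.35 TPM (1.26), which reached the minimum only through shEIF3F. The median was -0.65. Over all genes compared 25.5% were lower and 8.44% higher, with a median of -0.36. Neither FADS3 nor DEGS1 was past 2-fold after centring or with the GC trend removed.

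ELOVL6 and ACSL3 were not lower. ELOVL6, which lengthens palmitate, was at 7.57 TPM in the shCON library and 9.91 TPM in the shEIF3F library, 130.9% of control (log2 ratio 0.35). ACSL3, which activates fatty acids at the endoplasmic reticulum and on lipid droplets, was at 8.77 and 11.8 TPM, 134.8% of control (0.39). Both lie within 2-fold. The data give no measure of the variation between libraries against which to read differences of this size. In shCON they were among the 3 least abundant of the set, beside ACACB, and in shEIF3F both exceeded FADS1 and ACACB. With no replicates, the order of neighbouring levels has no error.

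Most compared paralogs of these enzymes were within 2-fold. The ELOVL family members with other chain preferences were ELOVL1 at 136 and 98.1 TPM (log2 ratio -0.47), ELOVL5 at 50.4 and 38.4 TPM (-0.38), ELOVL4 at 1.78 and 1.27 TPM (-0.29) and ELOVL7 at 1.25 and 1.00 TPM (-0.17). ELOVL2, which reached the minimum only through shCON, was at 3.02 and 0.64 TPM (-1.29, and -0.94 after centring), and ELOVL3 did not reach the minimum. Of 12 elongation genes 10 were compared, 3 were at least 2-fold lower and 0 higher (median -0.43), beside the 25.5% of all genes that were lower. After centring 1 was lower (median -0.07), and with the GC trend removed 2 were. As deposited, the lower genes besides ELOVL2 were the dehydratase HACD3, at 58.4 and 18.3 TPM (-1.62), and the reductase TECR, at 262 and 113 TPM (-1.21). TECR is uncertain, because its pseudogene TECRP1 was listed at 0.05 and 20.3 TPM. Among the long-chain acyl-CoA synthetases ACSL1 was at 9.74 and 4.82 TPM (-0.88), ACSL4 at 0.90 and 1.23 TPM (0.23) and ACSL6 at 2.08 and 1.56 TPM (-0.27), while ACSL5 did not reach the minimum.

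Scaling and base composition bear on these ratios. Transcripts rich in GC had lower ratios, with a Spearman's rho of -0.316 across 13192 genes, a description since genes are not replicates. SREBF1 and FASN have nearly the same transcript GC content, 64.7% and 65.3%. Among genes within 1 percentage point of SREBF1 the median ratio was -1.11 and 3.9% had a lower ratio than SREBF1. Among those within 1 point of FASN the median was -1.11 and 85.4% had a lower ratio than FASN. SCD (47.1% GC) and FADS1 (50.1%) lay lower than all but 1.6% and 1.1% of genes of like GC content. ELOVL6 (41.2%) and ACSL3 (38.1%) have the lowest GC content of the set, and genes like them had medians of -0.08 and -0.01.

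**Figure D2:**
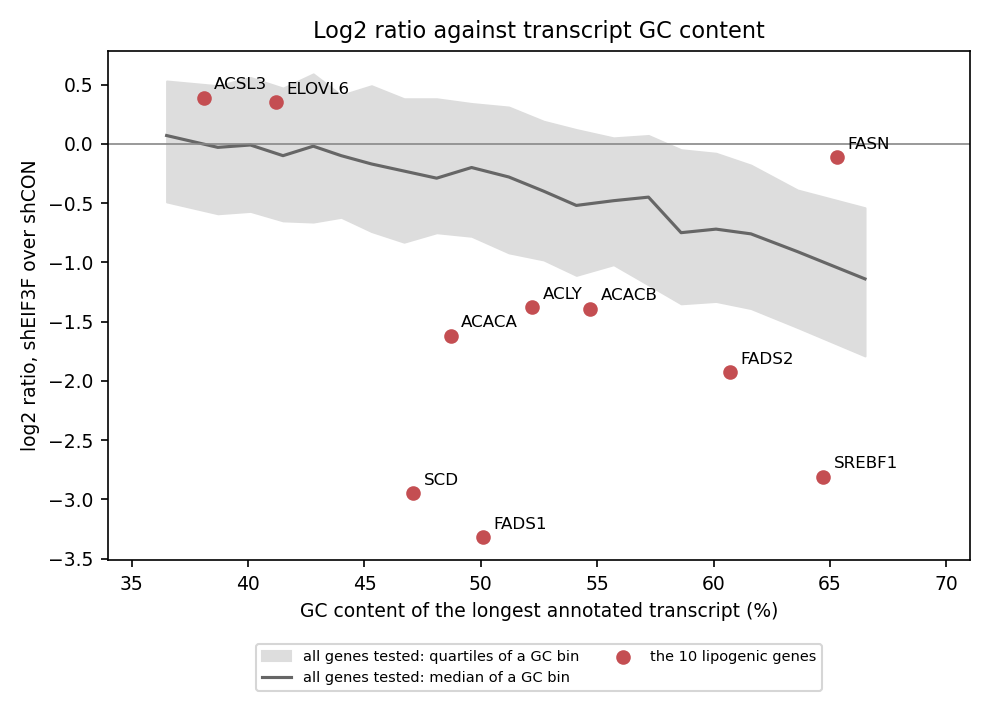
Log2 ratio of shEIF3F to shCON (vertical axis) against GC content of the longest annotated transcript (horizontal axis, percent) for the 10 genes (points), with the median (line) and quartiles (band) of all genes compared, in 20 GC bins. FASN and SREBF1 sit at nearly the same GC content, FASN above the band and SREBF1 below it.

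After centring, 7 of the 10 were still at least 2-fold lower and 0 higher, against 16.0% and 14.7% of all genes. With the GC trend removed, 5 were at least 2-fold lower and 1 higher, against 13.9% and 13.3% of all genes. The 5 were FADS1 (-3.12), SCD (-2.72), SREBF1 (-1.89), ACACA (-1.33) and FADS2 (-1.21). ACLY (-0.99) and ACACB (-0.87) were then within 2-fold, and the 1 higher was FASN (1.04). The sign of FASN depended on scaling: its log2 ratio was -0.11 as deposited, 0.25 after centring, and 0.32 when the libraries were rescaled without their 100 most abundant genes. ELOVL6 and ACSL3 were above 0 on each of these scales.

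**Figure D3:**
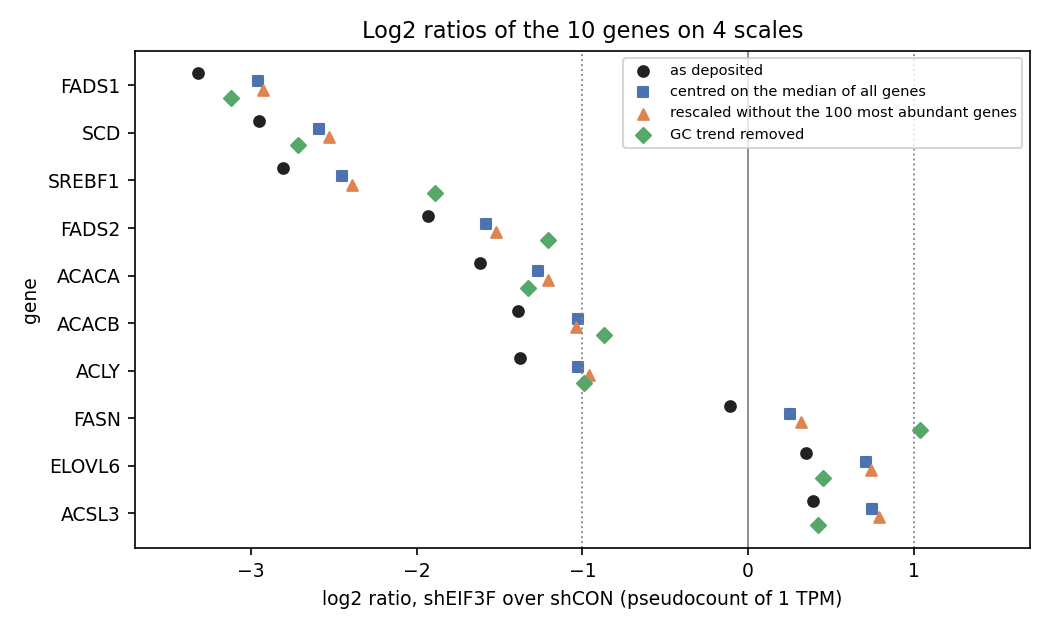
Log2 ratio of shEIF3F to shCON for each of the 10 genes as deposited (circle), centred on the median of all genes (square), rescaled without the 100 most abundant genes (triangle) and with the GC trend removed (diamond); dotted lines mark 2-fold. FADS1, SCD, SREBF1, FADS2 and ACACA stay left of the 2-fold line on each scale, whereas FASN lies on both sides of 0.

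Other regulators of lipogenic transcription and the enzymes that use the fatty acids were compared from fixed lists. Of 18 lipogenic transcription factors and coregulators, all compared, 6 were at least 2-fold lower and 0 higher (median -0.68), with 3 lower and 1 higher after centring, and 2 lower and 0 higher with the GC trend removed. The carbohydrate-responsive factor MLXIPL was at 10.9 and 2.38 TPM (log2 ratio -1.82), the SREBP1 coactivator PPARGC1B at 4.98 and 0.88 TPM (-1.67), MLXIP at 21.2 and 6.41 TPM (-1.58), and RXRA at 11.5 and 4.43 TPM (-1.20). PPARGC1B reached the minimum only through shCON. At a mean of 5 TPM or more 5 of these factors were at least 2-fold lower, and with a pseudocount of 5 TPM 2 were. Of 18 genes of glycerolipid synthesis 14 were compared, with 3 at least 2-fold lower and 0 higher (median -0.66). After centring 2 were lower and 0 higher, and with the GC trend removed 2 were lower and 1 higher. The 3 as deposited were the acyltransferase GPAT2, at 110 and 14.7 TPM (-2.82), the phosphatidate phosphatase LPIN1, at 15.6 and 2.26 TPM (-2.35), and AGPAT2 (-1.08). Mitochondrial fatty acid synthesis, a separate pathway that makes the lipoate precursor, had 3 of 10 genes at least 2-fold lower and 0 higher (median -0.44). These were its acyl carrier protein NDUFAB1, at 490 and 85.6 TPM (-2.50), MCAT, which is also counted above, and MECR (-1.45). After centring 3 were lower and 3 higher, and with the GC trend removed 1 was lower and 2 higher.

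**Figure D4:**
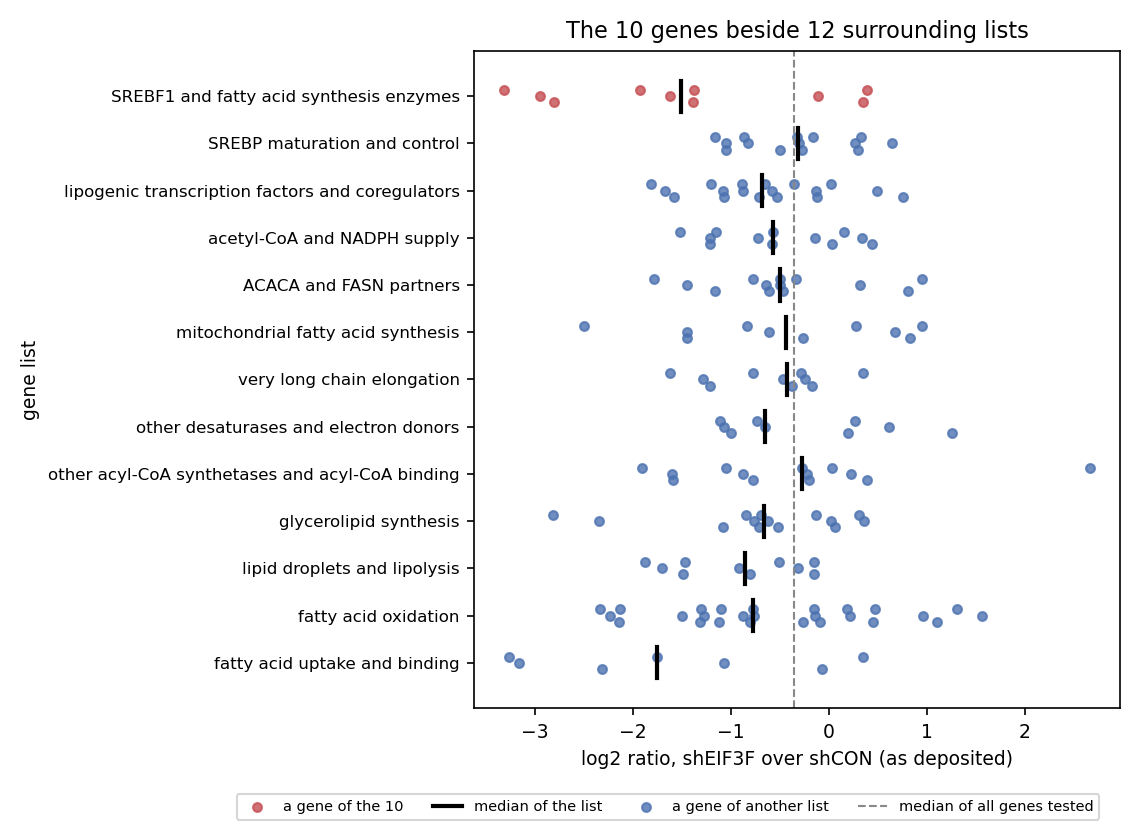
Log2 ratio as deposited (horizontal axis) of each compared gene in the 10-gene set (top row) and in 12 surrounding lists (other rows), with the median of each list (bar) and of all genes (dashed line). The 10 genes have a median of -1.51 with 3 genes far to the right of the others, and of the surrounding lists fatty acid uptake and binding has the lowest median, -1.76 over 7 of 14 genes, of which 3 reached the minimum only through shCON.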

How the data were processed

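RNA of 22Rv1 cells was sequenced in 1 shCON and 1 shEIF3F library; per the labels' protocols it was extracted with Trizol and prepared with an Illumina TruSeq kit. The authors deposited TPM per gene, rounded to 2 decimals. Per the submitters' processing notes, the tools include CASAVA and HISAT2 and the build is hg19; for the gene counter, annotation, strand use and filters, nothing is given in the sources used here. Columns were matched to groups by sample description.

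Repeated symbols were summed; 27 entries turned into dates and 6030 symbols of small RNA genes were left out. Genes that averaged at least 1 TPM were compared by log2((shEIF3F TPM + 1) / (shCON TPM + 1)), which understates changes of low genes; 2-fold is a rule of size, not a test. Transcript type, GC content (known for 99.1% of genes), length and exon overlap came from GENCODE release 29 (GRCh38), promoters from RefSeq. Ratios were also centred, rescaled, or centred within 20 bins of GC content or length. The 10 genes, the 12 surrounding lists and the markers were chosen with earlier results of these data known. Named are the 10 genes, SREBF2, SCAP, INSIG1, paralogs, up to 4 genes per list with the largest absolute ratio, and genes that share exons or reads; others were chosen after their values were seen (ME1, DECR1, HADHB, ACADL, SLC27A4, MFSD2A). Calculations used Python 3.11.15, NumPy 2.4.6, pandas 2.3.3 and matplotlib 3.10.9, and were tested on simulated data. One gene of the lists is not reported by name here.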

Additional observations from a re-analysis of the deposited data

How the results depend on the processing

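Over 10 alternatives (pseudocounts of 0.1 and 5 TPM, no filter or a mean of 5 TPM, centring, rescaling, GC or length trend removed, the most abundant entry per symbol, protein-coding genes only) the count of the 10 genes at least 2-fold lower ranged from 5 to 7 and their median log2 ratio from -1.68 to -1.10. The count at least 2-fold higher was 0 in each except with the GC trend removed, where it was 1. That was FASN, which was reversed to 1.04; it was also above 0 after centring (0.25), rescaling (0.32) and removal of the length trend (0.15). ACLY was within 2-fold after rescaling (-0.96) and with the GC (-0.99) or length (-0.99) trend removed, and ACACB with a pseudocount of 5 TPM (-0.82) or the GC trend removed (-0.87). The other 7 genes kept their sign and their side of 2-fold in all 10. For the surrounding lists, 296 of the values kept direction and side or stayed within 1.5 times, and 64 did not; the cause was not tested. TPM keeps no depth, so no detection limit can be given. No paired analysis was possible because each group has 1 library.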

Other observations

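Genes that take up, bind, store or burn fatty acids were compared from the same lists. Of 14 genes of uptake and binding only 7 reached the minimum, and 5 of these were at least 2-fold lower in shEIF3F. Over all genes compared the share was 25.5%. Of the 5, FABP6, LRP8 and MFSD2A reached it only through their level in shCON, so they had to differ, and the count and the median of -1.76 are no support for a lower list. The median was -0.80 with no minimum, -0.76 with a pseudocount of 5 TPM and -3.16 where the minimum was raised to 5 TPM. The fatty acid binding proteins FABP5, at 174 and 17.2 TPM (-3.27), and FABP7, at 76.0 and 7.62 TPM (-3.16) had log2 ratios between those of SCD and FADS1. FABP6 was at 4.30 and 0.06 TPM (-2.32), the lipoprotein receptor LRP8 at 4.58 and 0.65 TPM (-1.76) and the lipid transporter MFSD2A at 1.73 and 0.30 TPM (-1.07). FABP5 has 13 pseudogene entries in the table, which can share its reads, and they were listed at 0 to 1.38 TPM. With the GC trend removed 4 of the 7 were at least 2-fold lower, against 13.9% of all genes. With a pseudocount of 5 TPM 2 were.

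Fatty acid oxidation went both ways, with 10 of 26 compared genes at least 2-fold lower and 3 higher (median -0.77). After centring, 5 were lower and 4 higher. Over all genes compared 25.5% were lower and 8.44% higher as deposited, and 16.0% and 14.7% after centring. The peroxisomal thiolase ACAA1 was at 85.8 and 16.1 TPM (log2 ratio -2.34), ACAD9 at 44.5 and 8.65 TPM (-2.24), the branched-chain racemase AMACR at 7.62 and 0.95 TPM (-2.14) and the short-chain dehydrogenase ACADS at 36.4 and 7.51 TPM (-2.13). AMACR reached the minimum only through shCON. At a mean of 5 TPM or more, which it does not reach, 9 oxidation genes were at least 2-fold lower. The 3 higher were ACADL at 3.57 and 12.5 TPM (1.56), HADHB at 44.4 and 112 TPM (1.31) and DECR1 at 48.7 and 105 TPM (1.10). Of 10 compared genes of lipid droplets and lipolysis 4 were at least 2-fold lower and 0 higher (median -0.86): LIPE (-1.88), PLIN5 (-1.70), PNPLA3 (-1.49) and MGLL (-1.47). LIPE, PLIN5 and PNPLA3 reached the minimum only through shCON, so the count is no support for a lower list: 1 gene was at least 2-fold lower at a mean of 5 TPM or more, 1 with a pseudocount of 5 TPM, and 1 with the GC trend removed. Among the other acyl-CoA synthetases and acyl-CoA binding genes 4 of 13 were at least 2-fold lower, SLC27A5 (-1.91), ACSF2 (-1.60), SLC27A1 (-1.59) and SLC27A4 (-1.05), and 1 was higher, SLC27A2, at 0.96 and 11.5 TPM (2.67), with a median of -0.27. After centring 3 were lower and 1 higher, and with the GC trend removed 1 was lower and 1 higher. SLC27A1, at 4.48 and 0.82 TPM, reached the minimum only through shCON, and SLC27A2 only through shEIF3F. These counts are therefore no support for a direction of the list. With a pseudocount of 5 TPM 2 were lower and 1 higher.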
